A study of Mus musculus with 6 samples.

Results

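Aldo-keto reductases are enzymes that use NADPH to reduce aldehydes and ketones, among them sugars, lipid peroxidation products, retinaldehyde and steroids. The values described here are those of Akr1b10 and of its relatives on the array. Of 8 genes listed, 6 had a probe set that carried their symbol alone, namely Akr1b10, Akr1b8, Akr1c13, Akr1c14, Akr1e1 and Akr7a5. Together these had 11 probe sets out of 45037 that are not controls. Akr1b3 and Akr1b7 were not analysed here, since no probe set was named for them alone. The tissue was whole lateral ventricle choroid plexus, the epithelium with its stroma and vessels that makes cerebrospinal fluid. It came from 3 male CD1 mice aged 18 months (aged) and 3 male CD1 mice aged 2 months (young), with 1 array for the 2 plexuses of each mouse. CD1 is an outbred stock, and the groups differed by no treatment or genotype that the labels name. The question was how transcripts of the plexus differ between aged and young animals.

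The set was chosen by the age difference measured on these same 6 arrays, in which Akr1b10 had the smallest p among genes lower at 18 months. The differences between ages are therefore given for the 6 genes as a description, with standard errors (SE) and without a test. Intensities are on the log2 scale and serve to compare mice within 1 probe set, not genes with each other.

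As background, the AKR1B enzymes include aldose reductase (Akr1b3), which turns glucose into sorbitol. Akr1b7 is best known from the mouse vas deferens and adrenal gland, and Akr1b8 is a growth factor-induced relative often set beside human AKR1B10. The AKR1C enzymes act on steroid hormones and prostaglandins. The AKR7A enzymes reduce aflatoxin dialdehyde and succinic semialdehyde.

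In the RefSeq annotation of mouse assembly GRCm38.p6, the AKR1B genes stand next to each other on chromosome 6, in the order Akr1b3, Akr1b8, Akr1b10 and Akr1b7. The same annotation gives Akr1b16 as another name of Akr1b10. The 250 bases before the start of Akr1b10 and of its neighbour Akr1b8 are shown because the results turn on Akr1b10 and Akr1b8 is a relative next to it. Both are on the plus strand, from RefSeq (GRCm38.p6), at chr6:34383997-34384246 for Akr1b10 and chr6:34353896-34354145 for Akr1b8. Capitals mark any match to the 4 motifs named after the sequences.
Akr1b10: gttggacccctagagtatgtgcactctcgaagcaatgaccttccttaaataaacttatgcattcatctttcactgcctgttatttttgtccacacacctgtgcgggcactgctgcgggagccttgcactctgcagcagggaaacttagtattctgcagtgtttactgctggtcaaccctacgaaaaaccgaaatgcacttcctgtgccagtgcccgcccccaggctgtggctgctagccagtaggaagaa
Akr1b8: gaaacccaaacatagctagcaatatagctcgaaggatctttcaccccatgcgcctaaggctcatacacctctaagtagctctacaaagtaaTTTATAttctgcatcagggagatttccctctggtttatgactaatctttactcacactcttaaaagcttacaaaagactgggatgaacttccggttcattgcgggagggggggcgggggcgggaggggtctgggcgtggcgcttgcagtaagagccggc

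Both strands were searched for the core of the antioxidant response element (TGACNNNGC), which the stress factor Nrf2 binds, for the AP-1 site (TGANTCA), the TATA box (TATAAA) and the CCAAT box (CCAAT). The Akr1b10 window held none of the 4. The Akr1b8 window held 1 match, a TATA box on the minus strand. Of all 32851 windows of this length, 10.2% held the antioxidant core, 6.75% the AP-1 site, 12.4% the TATA box and 33.9% the CCAAT box. These letters describe the windows only. The GC content was 50.8% in the Akr1b10 window and 49.6% in the Akr1b8 window, against a median of 52.4% over all windows.

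The brightest Akr1b10 probe set, 1453173_at, had log2 intensities of 5.47, 5.61 and 5.55 in the 18-month mice, against 7.50, 7.17 and 7.39 in the 2-month mice. All 3 aged mice lay below all 3 young mice, and the values within each age were close together. The means were 5.54 ± 0.07 at 18 months and 7.35 ± 0.17 at 2 months (SD, n = 3 each). The log2 difference, 18 months minus 2 months, was -1.81 (SE 0.16), which is 3.51-fold lower at 18 months. All 6 arrays read this probe set above 4.51, the highest mean among 27 control probe sets for bacterial transcripts, taken here as a gauge of background. In bulk tissue, fewer cells that hold the transcript and less transcript per cell cannot be told apart.

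**Figure D1:**
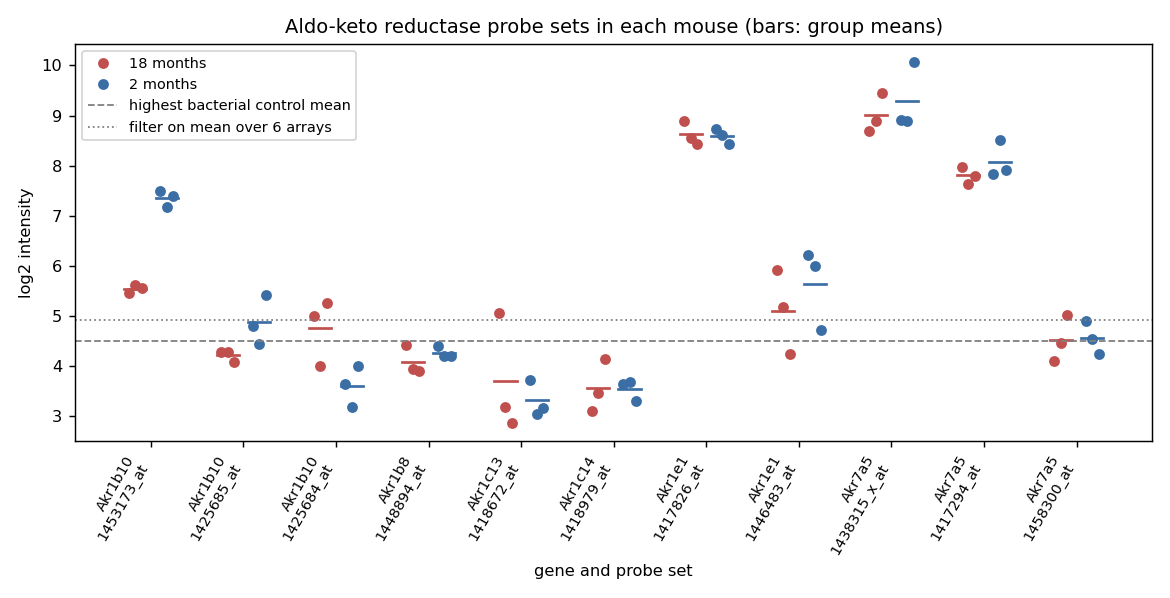
Log2 intensity of each of the 11 probe sets (horizontal axis, gene and probe set) in each mouse, 18 months left of 2 months, with bars for group means. Only 1453173_at of Akr1b10 shows a wide gap between ages with both groups above the dashed line at 4.51, the highest bacterial control mean.

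The other probe sets of Akr1b10 were dim and did not give the same picture. 1425685_at read 4.29, 4.29 and 4.09 in aged mice, against 4.80, 4.43 and 5.41 in young mice. It was lower in all 3 aged mice, by -0.66 (SE 0.27), but 0 aged and 2 young mice lay above the bacterial gauge. Counted from that gauge its difference was -0.38. 1425684_at ran the other way, with 5.0, 3.99 and 5.27 in aged mice, against 3.64, 3.19 and 4.0 in young mice. Here the ages overlapped, since aged mouse 2 lay just under the highest young mouse. The difference was 1.15 (SE 0.38), and 0.25 when counted from the gauge, since 0 young mice lay above it. Which transcript, or which close relative, each of these probe sets reads was not tested. Nor were sequence variants under the probes, which outbred mice can carry.

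Among the relatives in the AKR1B and AKR1C groups, Akr1b8, Akr1c13 and Akr1c14 had group means below the bacterial gauge at both ages, and no fold is given for them. Akr1b8 had 4.43, 3.93 and 3.90 in aged mice, against 4.40, 4.21 and 4.19 in young mice. Akr1c14, a 3-alpha-hydroxysteroid dehydrogenase that makes neuroactive steroids, had 3.11, 3.46 and 4.15 in aged mice, against 3.64, 3.68 and 3.31 in young mice. The ages overlapped for both genes. Akr1c13, a relative that acts on steroids and other alcohols, had 5.06, 3.18 and 2.87 in aged mice, against 3.72, 3.05 and 3.16 in young mice. Of these 18 values of the 3 genes, the 5.06 of aged mouse 1 was the only one above the gauge. Another probe set is annotated to both Akr1c12 and Akr1c13 and was not used.

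Akr1e1, which encodes a reductase of 1,5-anhydrofructose, was well above background. Its brighter probe set, 1417826_at, had 8.89, 8.55 and 8.44 in aged mice, against 8.73, 8.61 and 8.44 in young mice. The ages covered nearly the same range, and the difference was 0.03 (95% confidence interval -0.42 to 0.48). Its dimmer probe set, 1446483_at, had 5.92, 5.17 and 4.23 in aged mice, against 6.21, 6.0 and 4.71 in young mice. The spread within each age was wider than the gap between them, which was -0.53 (SE 0.55).

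Akr7a5, the aflatoxin aldehyde and succinic semialdehyde reductase, was also bright. 1438315_x_at had 8.69, 8.89 and 9.44 in aged mice, against 8.91, 8.89 and 10.07 in young mice. 1417294_at had 7.98, 7.64 and 7.79 in aged mice, against 7.83, 8.51 and 7.91 in young mice. Both overlapped between ages, and their differences were nearly equal, at -0.28 (SE 0.38) and -0.28 (SE 0.23). The highest value was that of young mouse 3 in the first and of young mouse 2 in the second. Without young mouse 3 the difference of 1438315_x_at was 0.11. The dim 1458300_at had group means of 4.53 at 18 months and 4.56 at 2 months, a difference of -0.03.

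Over the 11 probe sets, 2 lay lower in every aged mouse than in every young one, both of Akr1b10, and 0 lay higher. Over all probe sets these shares were 5.63% lower and 5.36% higher. Since the set was chosen by this contrast, nothing is read from that count. Of the 6 genes, 3 (Akr1b10, Akr1e1 and Akr7a5) were bright enough for the fit over genes, in which the brightest probe set stood for a gene and its mean had to reach 4.92. Of the 3, 1 (Akr1b10) had separate ranges with the aged mice lower and 0 with the aged mice higher, against 6.25% and 7.06% of the genes tested. Of the 3, 0 passed an adjusted p of 0.05 (limma, Benjamini-Hochberg), and 0% of the 12681 genes tested passed in either direction. The lowest adjusted p over all genes was 0.0540. At an unadjusted p under 0.05 the fit had 4.02% of genes higher and 3.03% lower. The ordinary 2-sample test gave 0 genes after adjustment.

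The samples carried brain tissue in varying amounts, and its part in the members' values was not tested beyond a covariate. The 9 neuron markers measured averaged 6.57, 7.18 and 8.13 in the 18-month mice and 7.05, 6.75 and 8.22 in the 2-month mice. Within each age 1438315_x_at of Akr7a5 followed the same order of mice and was highest in the mouse with the most neuron signal. The other bright probe set of Akr7a5, 1417294_at, was instead highest in aged mouse 1 and young mouse 2, which had the least neuron signal of their ages. Both probe sets of Akr1e1 were lowest in the mouse with the most neuron signal at each age. Akr1b10 at 1453173_at was lowest in aged mouse 1 and young mouse 2, which had the least neuron signal of their ages. It was highest in aged mouse 2 and young mouse 1, not in the mice with the most. With the neuron marker level as a covariate in the fit over genes, its difference was -1.81 (SE 0.18), while that of Akr7a5 at 1438315_x_at was -0.25 (SE 0.20). The 8 epithelial markers averaged 12.62 to 12.69 at 18 months and 12.59 to 12.67 at 2 months, but single markers ran both ways, with 1 higher and 2 lower in every aged mouse. The water channel gene Aqp1 was the higher one, at 0.64 (SE 0.24, limma adjusted p = 0.682). The 2 lower were Sostdc1, which encodes a secreted BMP and Wnt inhibitor, at -0.23, and Ttr, the thyroxine carrier that marks plexus epithelium. Ttr averaged 14.30 at 18 months and 14.47 at 2 months.

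**Figure D2:**
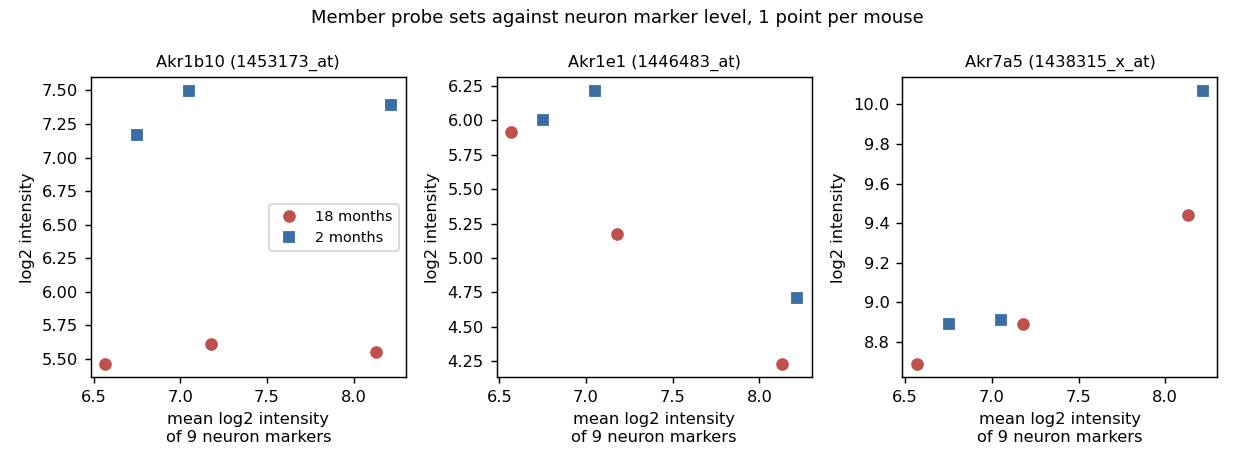
Log2 intensity of 1 probe set of Akr1b10, Akr1e1 and Akr7a5 (vertical axes) against the mean log2 intensity of 9 neuron markers (horizontal axes), with 1 point per mouse. Akr1b10, chosen by its age difference, is lower in every aged mouse and lowest in the mouse with the least neuron signal at each age. The probe set drawn for Akr7a5 is highest and that for Akr1e1 lowest in the mouse with the most neuron signal at each age.

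Of the 9 marker lists for cell types, 2 separated the ages in their average, and 1 of these ran the same way as Akr1b10. No test was made of these averages. The 7 markers of multiciliated and ependymal cells averaged 7.61, 7.79 and 8.25 in aged mice, against 8.57, 8.32 and 9.17 in young mice, so that all 3 aged mice lay below all 3 young ones. Of those 7 markers, 3 were lower in every aged mouse and 0 higher, against 6.25% and 7.06% of the genes tested. These were Mlf1, Fam183b and Foxj1. Mlf1 differed by -0.82 (SE 0.19, limma adjusted p = 0.494) and Fam183b by -2.81 (SE 0.77, limma adjusted p = 0.578). The difference of Foxj1 was -0.31 (SE 0.18, limma adjusted p = 0.779). The gap in the average rested largely on Fam183b, which read 3.10 in aged mouse 1, below the bacterial gauge. The ages overlapped for Ccdc153 (-0.85), Tmem212 (-0.70), Rsph1 (-0.11) and Dynlrb2 (-0.02). The average of the 3 pituitary markers tested ran the other way, at 8.81, 8.43 and 7.68 in aged mice, against 6.15, 6.54 and 5.95 in young mice. The growth hormone gene Gh (4.98, SE 0.45, limma adjusted p = 0.0540) was higher in every aged mouse. So was the pro-opiomelanocortin gene Pomc (1.34, SE 0.42, limma adjusted p = 0.636). The other marker, Lhb, differed by -0.04 with overlapping ages, so the gap in the average came mostly from Gh. The 7 stroma markers averaged 6.93, 6.98 and 7.62 in aged mice, against 7.21, 7.37 and 7.28 in young mice. These averages overlapped, with 2 genes lower in every aged mouse (Dcn, -0.72, and Col1a2, -0.48) and 1 higher (Pdgfra, 1.95). The 9 macrophage markers averaged 7.98, 7.34 and 8.21 in aged mice, against 7.35, 7.15 and 7.60 in young mice. They too overlapped, with a median difference of 0.59 and 1 gene, Aif1, higher in every aged mouse. No list had a marker listed at 0. The part of these cells in the Akr1b10 difference was not tested.

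The genes whose profile over the 6 arrays was most like that of Akr1b10 were A2m, Postn, Mdh1b, Cdon and Cct6a, with Pearson correlations from 0.978 to 0.989 over 6 arrays. The arrays share the 2 ages, and a gap between ages alone gives a high value. After each age mean was subtracted, the correlations were -0.07 for A2m, 0.88 for Postn, 0.60 for Mdh1b, 0.59 for Cdon and 0.65 for Cct6a. A2m, which encodes the protease inhibitor alpha-2-macroglobulin, had 8.74, 8.82 and 8.73 in aged mice, against 9.49, 9.54 and 9.54 in young mice. Postn, the matrix protein periostin, had 8.27, 8.56 and 8.21 in aged mice, against 9.89, 9.40 and 9.63 in young mice. Like Akr1b10, it was highest of the aged mice in mouse 2 and lowest of the young mice in mouse 2. Mdh1b, a malate dehydrogenase relative, differed by -1.21 (SE 0.19). For Cdon, whose protein assists Hedgehog reception, the difference was -1.13 (SE 0.18). For Cct6a, a chaperonin subunit gene, it was -0.31 (SE 0.15).

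**Figure D3:**
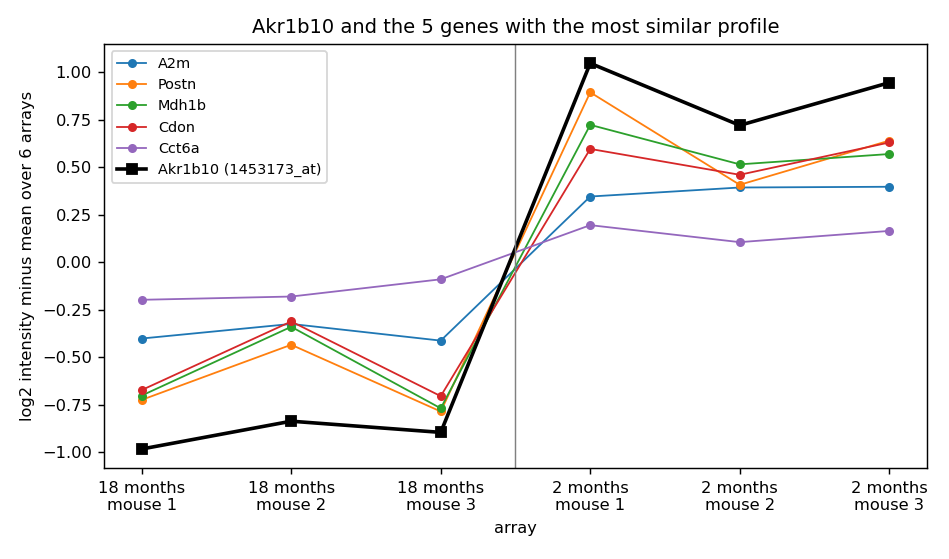
Log2 intensity minus the mean over 6 arrays (vertical axis) for Akr1b10 and its 5 most similar genes in each mouse (horizontal axis), 18 months left of 2 months. All 6 genes lie below their mean in the aged mice and above it in the young. The 5 were picked by likeness to Akr1b10, itself chosen by its age difference, so nothing is read from this.

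The genes tested beside the AKR1B cluster on chromosome 6 did not show a like gap. Lrguk, beyond Slc35b4, was too dim to test. Slc35b4, a nucleotide sugar transporter gene on the Akr1b3 side, had group means of 7.66 at 18 months and 7.62 at 2 months. On the Akr1b7 side, Bpgm, the bisphosphoglycerate mutase gene, averaged 10.60 at 18 months and 10.75 at 2 months, and Cald1, the caldesmon gene, averaged 10.84 at both ages. Agbl3 averaged 7.05 at 18 months and 6.90 at 2 months. The ages overlapped for all 4 genes, whose differences ran from -0.15 to 0.15.

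Of the other 13 names in the aldo-keto reductase superfamily, 12 had a probe set and 4 genes were bright enough to test. By limma 0 of them passed in either direction at an adjusted p of 0.05, and 0 at an unadjusted p under 0.05. Akr1a1, the widely expressed aldehyde reductase, had 12.52, 12.56 and 12.45 in aged mice, against 12.50, 12.50 and 12.70 in young mice in its brightest probe set. Its 4 probe sets gave differences from -0.14 to -0.05, and each overlapped between ages. Akr1c12, a hydroxysteroid dehydrogenase relative, differed by 0.11 (SE 0.16, limma adjusted p = 0.913). Kcnab2, a potassium channel beta subunit with an aldo-keto reductase fold, differed by 0.47 (SE 0.26, limma adjusted p = 0.778) and by 0.28 in its other probe set. For its relative Kcnab1 the 2 probe sets disagreed. The brighter one gave 0.18 (SE 0.25, limma adjusted p = 0.910). The other read 7.20, 6.84 and 7.40 in aged mice, against 5.12, 4.85 and 6.69 in young mice, a difference of 1.59 (SE 0.49) with separate ranges.

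Genes of related enzymes and pathways, with Nrf2 and its targets among them, were taken as lists, chosen with earlier results of these data known. In each of the 5 lists 0 genes passed limma's adjusted p of 0.05. Among 19 carbonyl reductases and alcohol dehydrogenases tested, 3 had an unadjusted p under 0.05, all higher at 18 months, and 0 lower. The shares over all genes tested were 4.02% higher and 3.03% lower. The 3 higher genes were retinol dehydrogenase genes. Others of that name, Rdh13 (-0.0022) and Rdh14 (-0.02), overlapped between ages, as did Dhrs3 (-0.34). Rdh10, which oxidises retinol to retinaldehyde, had 11.73, 11.34 and 11.52 in aged mice, against 10.78, 10.63 and 10.34 in young mice. Its difference was 0.95 (SE 0.20, limma adjusted p = 0.432), and its dimmer probe set gave 1.16. Rdh11, which reduces retinaldehyde as AKR1B enzymes can, had 6.96, 6.95 and 6.98 in aged mice, against 4.31, 5.97 and 5.65 in young mice. Its difference was 1.65 (SE 0.42, limma adjusted p = 0.566). Young mouse 1 read below the bacterial gauge, and the dimmer probe set gave 0.61 with overlapping ages. Rdh12 gave 0.60 (SE 0.24, limma adjusted p = 0.706) and the xylulose reductase gene Dcxr 0.71 (SE 0.38, limma adjusted p = 0.774). The dimmer probe set of Rdh12 gave 0.12, and Dcxr was 0.36 without aged mouse 2. The median of this list was 0.10, against 0.00 over all genes tested.

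Among 18 genes of steroid and prostaglandin metabolism, 2 had an unadjusted p under 0.05, both lower at 18 months, and the median was -0.20. Over all genes tested, 3.03% were lower at that cut and 4.02% higher. Hpgd, which inactivates prostaglandins, had 5.57, 6.78 and 5.31 in aged mice, against 7.58, 7.63 and 7.08 in young mice. All 3 aged mice lay below all 3 young ones, by -1.54 (SE 0.41, limma adjusted p = 0.568), and its other probe set gave -1.33. Ptgis, the prostacyclin synthase gene, differed by -0.58 (SE 0.22, limma adjusted p = 0.688). Cyp11a1, the side-chain cleavage enzyme whose by-product Akr1b7 detoxifies in the adrenal gland, differed by -0.42 (SE 0.22, limma adjusted p = 0.766). Hsd17b11, a hydroxysteroid dehydrogenase gene, gave 0.31 (SE 0.20, limma adjusted p = 0.802).

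Nrf2, encoded by Nfe2l2, is known to induce several aldo-keto reductases. Nfe2l2 had 9.68, 9.46 and 9.76 in aged mice, against 9.69, 9.19 and 9.13 in young mice, with overlapping ages and a difference of 0.30 (SE 0.21, limma adjusted p = 0.821). The dimmer probe set of Nfe2l2 averaged 4.47, under the bacterial gauge, and gave -0.10. Keap1, the gene of the Nrf2 inhibitor, differed by -0.09 (SE 0.23), and by -0.26 in its dimmer probe set. The median of the 27 genes tested in this list was -0.07. Of these, 2 had an unadjusted p under 0.05, both higher at 18 months, against 4.02% higher and 3.03% lower over all genes tested. They were the pentose phosphate enzyme gene Pgd (0.55, SE 0.21, limma adjusted p = 0.682) and the sulfiredoxin gene Srxn1 (0.44, SE 0.17, limma adjusted p = 0.682). The 4 probe sets of Pgd gave 0.37 to 0.55, while the 4 of Srxn1 ran from -0.22 to 0.44, with 0.14 in the second brightest. Lower in every aged mouse were the glutathione reductase gene Gsr (-0.55, SE 0.23, limma adjusted p = 0.710) and the quinone reductase gene Nqo1 (-0.26, SE 0.15, limma adjusted p = 0.779). The other probe set of Gsr gave -0.10 with overlapping ages, and without young mouse 3 the brighter one gave -0.34.

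Of 15 aldehyde dehydrogenases tested, which oxidise the aldehydes that aldo-keto reductases reduce, 0 had an unadjusted p under 0.05, and the median was 0.07. The smallest p belonged to Aldh9a1 at 0.61 (SE 0.37, limma adjusted p = 0.789). It was 0.19 without aged mouse 3, and the other probe set of Aldh9a1 gave 0.15. Next came Aldh1a2, which makes retinoic acid, at 0.78 (SE 0.56, limma adjusted p = 0.821), which ran from 0.46 to 1.28 with 1 mouse left out. Aldh16a1 gave 0.80 (SE 0.67) and rested on aged mouse 1, without which it was -0.0037. Aldh1l1, a folate enzyme, gave 0.25 (SE 0.22), and 0.089 without young mouse 1. Of 8 genes of the polyol and methylglyoxal pathway, 1 had an unadjusted p under 0.05, the hexokinase gene Hk2, higher at 0.68 (SE 0.23, limma adjusted p = 0.672). For both lists, the shares over all genes tested were 4.02% higher and 3.03% lower. Glo1, which detoxifies methylglyoxal, differed by -0.16 (SE 0.15, limma adjusted p = 0.862) in its brightest probe set, and its 4 probe sets ran from -0.79 to -0.16. The protein deglycation kinase genes Fn3k and Fn3krp gave 0.23 (SE 0.17) and -0.31 (SE 0.39).

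**Figure D4:**
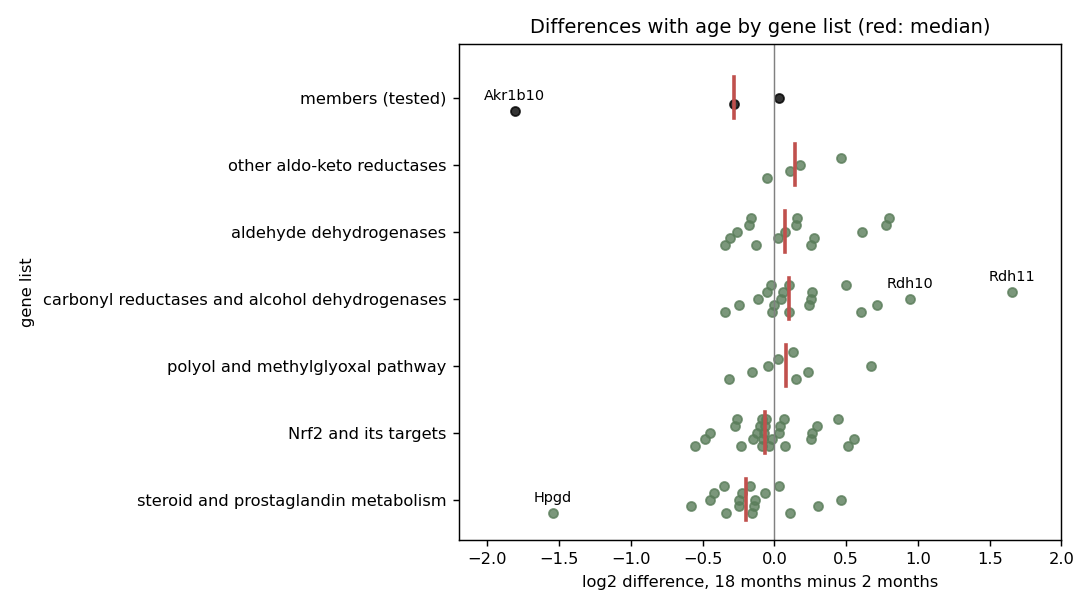
Log2 difference, 18 months minus 2 months (horizontal axis), of each tested gene by list (vertical axis), with red bars for medians. The genes of the 6 lists run from Hpgd at -1.54 to Rdh11 at 1.65, and Akr1b10, drawn in the top row at -1.81, was chosen by this same difference.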

How the data were processed

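The authors deposited 1 table of intensities for 45101 probe sets on 6 arrays, made with RMA per the submitters' processing notes. The version, and whether replicates shared a batch, were not given in the sources used here. The intensities, from 2.47 to 26820.7, were linear, and log2 was taken. Per the labels' protocols, RNA was amplified with a Nugen Pico kit, which can distort dim transcripts. The number of arrays limits the precision.

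Genes came from the platform annotation, and 34945 probe sets carried 1 symbol, 932 several and 9160 none. All 11 member probe sets kept their symbol in RefSeq by gene identifier. Akr1b16, in the list of other aldo-keto reductases, is a synonym of Akr1b10. Genes whose brightest probe set reached the 40th percentile (4.92) were fitted with limma 3.58.1 in R 4.3.3. Differences of single probe sets came from a fit over all 45037 with no filter, and values under alternatives from the fit over genes. SD is over 3 mice, SE and intervals are from limma. The fit was tested on simulated data. The labels name biological replicates, each from 1 mouse.

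Members and lists were chosen with earlier results of these data known. Named were all members, up to 4 genes of each list with the smallest p, Nfe2l2, Keap1 and the 5 genes most correlated with Akr1b10, and Ttr among markers. Neighbouring genes and the other single markers were added after values were seen. Alternatives were other filters, probe set means, normalizations, tests, covariates, a replicate block and left-out mice. Samples with the same replicate number come from different mice. Deviations from age means correlated at -0.02, 0.02 and 0.17 for numbers 1, 2 and 3, so the numbers were not taken as pairs.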

Additional observations from a re-analysis of the deposited data

How the results depend on the processing

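Akr1b10 was lower at 18 months in all 16 alternatives, from -1.91 to -0.44. The mean of its 3 probe sets gave -0.44. In the other 15, which all used its brightest probe set, it lay at -1.74 or lower. With 1 mouse left out it ran from -1.90 to -1.74, and with a replicate block it was -1.81 (SE 0.20). Since Akr1b10 was chosen by this difference on these arrays, nothing is read from the shared direction. Raised to the bacterial gauge, 1425684_at gave 0.25. The count of genes past the threshold was 0 higher and 0 lower as reported. It was 3 and 1 with a 60th percentile filter or array weights, 4 and 1 with centred arrays, where the gene lower was Akr1b10, chosen by its p on these arrays, so nothing is read from it. Averaging all probe sets of a gene gave 5 and 0, and the neuron covariate 1 and 0. With 1 mouse left out, or with the replicate block, it was 0 and 0. Each of the 6 lists had 0 genes past the threshold in all 16. Of 31 named genes outside the members, 26 kept their direction. Most were named for a small p or for likeness to Akr1b10 on these arrays, so nothing is read from that count. Keap1 turned to 0.12 without aged replicate 3, alone or with young replicate 2, Aldh16a1 to -0.0037 without aged replicate 1, Kcnab1 to -0.026 without young replicate 1, and Akr1a1 to 0.012 and Fn3krp to 0.13 without young replicate 3. With 1 mouse left out their ranges were -0.27 to 0.12 for Keap1, -0.0037 to 1.26 for Aldh16a1, -0.026 to 1.24 for Kcnab1, -0.087 to 0.012 for Akr1a1 and -0.54 to 0.13 for Fn3krp. The 1.24 of Kcnab1 came without young replicate 2, where its other probe set 1448468_a_at became the brightest, while 1454043_a_at gave 0.42. Of the 31 genes, 13 moved by over 1.5 times with 1 mouse left out. The cause was not tested otherwise. Akr7a5 ran from -0.70 to 0.11 and Akr1e1 from -0.25 to 0.13. Akr1b8, Akr1c13 and Akr1c14 lay too near background to be compared.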

Other observations

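Glo1, which encodes the glyoxalase that removes methylglyoxal, was lower in every aged mouse than in every young one in 3 of its 4 probe sets. Of all probe sets 5.63% were, but these 4 read 1 gene in the same mice and are not independent. Glo1 was picked out of the named genes after its values were seen, and the cause of its difference was not tested. In the fit over all probe sets the differences were -0.16 (SE 0.14), -0.69 (SE 0.16) and -0.79 (SE 0.21), from the brightest to the dimmest of the 3, and -0.34 (SE 0.18) in the probe set whose ages overlapped. The probe set that stood for Glo1 in the fit over genes was thus the one with the smallest difference (limma adjusted p = 0.862).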
